A study of Mus musculus with 6 samples.

Results

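The receptors of the TREM locus are 7 genes on mouse chromosome 17, A530064D06Rik, Trem1, Trem2, Trem3, Treml1, Treml2 and Treml4. They were chosen by name and place from the 23504 genes of the table, and they were selected on their measured difference between the groups, since Trem2 and A530064D06Rik were already seen to be higher with DASA-58 in these data. The levels and fold changes of the 7 genes are therefore given as a description, with no test. The study asked how activation of pyruvate kinase M2 (PKM2), a glycolytic enzyme, affects the formation of osteoclasts, the cells that resorb bone. RNA was sequenced from bone marrow-derived macrophages (BMMs) of C57BL/6 mice in 6 libraries, 3 labelled DMSO (the solvent) and 3 labelled DASA-58 (a small-molecule PKM2 activator). The cells were taken after 3 days, and the results text of the study has both groups induced with RANKL, the cytokine that drives osteoclast formation. The methods name RANKL only with the activator, which they write as DASA-48. The concentration of the activator in the sequenced cultures is not given in the sources used here, although the study gives concentrations for other assays. The sources also do not say whether the 3 libraries of a group came from separate mice or cultures, so the p-values measure only the spread between these libraries.

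TREM receptors are surface proteins of myeloid cells with a single immunoglobulin-like domain. The activating members have no signalling motif of their own and pair with the adaptor DAP12, encoded by Tyrobp, whose ITAM motif recruits the kinase Syk. TREM2 binds lipids and lipoproteins and, with DAP12, takes part in osteoclast formation; inherited loss of either protein in people gives a disease of bone cysts and brain degeneration. A530064D06Rik, listed by RefSeq under the synonyms pdctrem and Trem4, encodes a receptor first known from plasmacytoid dendritic cells.

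All 7 genes were in the table, and their transcripts differed widely in abundance. In GENCODE M21 on the GRCm38 build they lay between chr17:48149126 and chr17:48367176, a span of 218 kb. The order along the chromosome was A530064D06Rik on the minus strand, then Trem1, Trem3, Treml4, Treml2, Trem2 and Treml1 on the plus strand. Trem1 and Trem3 were 0.853 kb apart, and the widest gap, 65.5 kb, lay between A530064D06Rik and Trem1. B430306N03Rik, which RefSeq also calls Treml6, lay inside this span between Treml2 and Trem2 but was not among the 7 genes chosen.

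The 250 bases upstream of the RefSeq start are shown for the 3 members with the highest levels and for B430306N03Rik, because those of A530064D06Rik and B430306N03Rik were nearly the same sequence. They are given 5′ to 3′ on the strand of the gene, from RefSeq on GRCm38.p6. Capitals mark matches to GAGGAAGT (the core of a PU.1-type ETS site), TGANTCA (AP-1-like, with any middle base) or CCAAT. A530064D06Rik is at chr17:48167258-48167507 on the minus strand, B430306N03Rik at chr17:48315912-48316161, Trem2 at chr17:48346151-48346400 and Treml4 at chr17:48264045-48264294, all 3 on the plus strand.
A530064D06Rik: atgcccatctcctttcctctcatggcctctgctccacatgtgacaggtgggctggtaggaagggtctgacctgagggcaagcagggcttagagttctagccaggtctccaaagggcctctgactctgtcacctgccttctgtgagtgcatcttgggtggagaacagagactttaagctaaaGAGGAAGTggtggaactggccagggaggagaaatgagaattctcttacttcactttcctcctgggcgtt
B430306N03Rik: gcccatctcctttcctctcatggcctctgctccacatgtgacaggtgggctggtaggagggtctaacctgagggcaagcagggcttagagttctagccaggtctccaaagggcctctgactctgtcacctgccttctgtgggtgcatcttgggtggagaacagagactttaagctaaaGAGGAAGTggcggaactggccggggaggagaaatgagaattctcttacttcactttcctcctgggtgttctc
Trem2: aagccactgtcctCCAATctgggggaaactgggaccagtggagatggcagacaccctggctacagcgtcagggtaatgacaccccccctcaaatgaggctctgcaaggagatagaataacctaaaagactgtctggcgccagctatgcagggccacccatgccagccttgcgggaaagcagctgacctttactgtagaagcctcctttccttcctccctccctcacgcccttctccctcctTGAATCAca
Treml4: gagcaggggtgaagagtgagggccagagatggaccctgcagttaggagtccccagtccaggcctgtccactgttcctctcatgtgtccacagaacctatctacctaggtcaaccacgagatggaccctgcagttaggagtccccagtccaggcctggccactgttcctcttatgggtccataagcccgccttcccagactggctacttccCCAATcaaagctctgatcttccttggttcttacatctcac

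RefSeq gave such a window for 5 of the 7 members and for B430306N03Rik; Trem3 and Treml2 had no entry. When the windows of A530064D06Rik and B430306N03Rik were aligned with free ends, 242 of 248 aligned columns were identical (97.6%), and 6 were not. The other 14 pairs among the 6 windows had between 51.3% and 64.2% identical columns over shorter or gapped alignments. The windows of A530064D06Rik and B430306N03Rik both held GAGGAAGT, whose first base lay at -69 in A530064D06Rik and at -72 in B430306N03Rik, counted from the RefSeq start. On both strands, 2.44% of the 32851 mouse windows of this length held that motif. The Trem2 window held TGANTCA at -9, as TGAATCA, and CCAAT at -237. With any middle base, TGANTCA was found in 6.75% of all windows. CCAAT also stood at -40 in the Treml4 window and was found in 33.8% of all windows. The Treml1 window held CACGTG, the E-box of the MITF and TFE family, at -69, against 6.02% of all windows. No match to TGACNNNGC (the antioxidant response element core, 10.2% of all windows) or TATAAA (12.4%) was found in the 6 windows, and the Trem1 window held none of the 6 motifs. These matches are descriptions of letters and not of binding.

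Levels are given as FPKM (fragments counted for a gene, scaled by its length and by the depth of the library), which can be compared between genes because they are per length. Trem2 (ENSMUSG00000023992, chr17:48346401-48354147) was by far the most abundant member, at 97.2, 102 and 99.3 FPKM in the DMSO libraries and 122, 129 and 125 FPKM in the DASA-58 libraries. Every DASA-58 library lay above every DMSO library, and the values within each group were close together. The mean was 99.6 ± 2.50 FPKM in the first group and 125 ± 3.49 FPKM in the second (SD, n = 3 each), a 1.25-fold difference, and the fitted log2 fold change on the log2(FPKM + 1) scale was 0.32 (SE 0.032). Between 8826 and 11682 fragments were recovered for Trem2 in each library, and its mean FPKM ranked 455 in the whole table.

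A530064D06Rik (ENSMUSG00000043939, chr17:48149126-48167275) had the widest relative difference of the 7. It measured 12.2, 11.8 and 10.7 FPKM under DMSO and 19.99, 20.8 and 24.0 FPKM under DASA-58. The lowest DASA-58 library stood well above the highest DMSO library. The mean was 11.6 ± 0.787 FPKM under DMSO and 21.6 ± 2.14 FPKM under DASA-58 (SD, n = 3 each), 1.86-fold higher, with a log2 fold change of 0.84 (SE 0.074). It rested on 373 to 429 fragments with DMSO and 720 to 872 with DASA-58. Its transcripts share 7.81% of their 50-base words with other genes, 2.98% with B430306N03Rik and 3.11% with 9830107B12Rik (synonym Trem5), so a part of its count may depend on how the authors assigned such reads, which the sources used here do not state. The other 6 members share no 50-base word with another gene.

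Treml4 (ENSMUSG00000051682, chr17:48264295-48275360) encodes a DAP12-linked receptor that binds dead and dying cells. Its level was 4.18, 3.96 and 4.23 FPKM under DMSO and 5.74, 6.85 and 7.42 FPKM under DASA-58. The DASA-58 libraries spread more than the DMSO libraries and did not overlap them. The means were 4.12 ± 0.146 and 6.67 ± 0.852 FPKM (SD, n = 3 each), a 1.62-fold difference, and the log2 fold change was 0.58 (SE 0.081).

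Trem3 (ENSMUSG00000041754, chr17:48247777-48258841), a further activating receptor of macrophages that signals through DAP12, was low, at 2.08, 1.71 and 1.71 FPKM under DMSO and 2.83, 3.65 and 3.24 FPKM under DASA-58. These values rested on 31 to 38 fragments per DMSO library and 53 to 66 per DASA-58 library. The groups were apart, with means of 1.83 ± 0.216 and 3.24 ± 0.409 FPKM (SD, n = 3 each), a 1.77-fold difference, and a log2 fold change of 0.58 (SE 0.090). Trem1 (ENSMUSG00000042265, chr17:48232768-48246924), which amplifies inflammatory responses in neutrophils and monocytes and neighbours Trem3, was close to absent. It had 6, 12 and 7 fragments in the DMSO libraries and 10, 11 and 14 in the DASA-58 libraries, or 0.109 to 0.246 FPKM. The groups overlapped, the gene was below the minimum of 1 FPKM for the fit, and a difference was not detectable at this depth, where a count of 0 would allow 3 fragments or up to 0.0550 FPKM.

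The remaining members differ from the DAP12-linked receptors in how they signal. Treml1 (ENSMUSG00000023993, chr17:48359916-48367176) encodes TLT-1, a receptor of platelet granules with an inhibitory ITIM motif. It measured 2.57, 1.74 and 2.39 FPKM under DMSO and 3.45, 3.06 and 3.12 FPKM under DASA-58, with means of 2.23 ± 0.435 and 3.21 ± 0.209 FPKM (SD, n = 3 each), a 1.44-fold difference and a log2 fold change of 0.39 (SE 0.10). The groups did not overlap, but the second DMSO library lay apart from the other two. Treml2 (ENSMUSG00000071068, chr17:48299498-48312533), a receptor of macrophages and lymphocytes, had the smallest difference among the 6 members in the fit. It measured 1.66, 1.66 and 1.62 FPKM under DMSO and 1.79, 1.90 and 1.95 FPKM under DASA-58, with means of 1.64 ± 0.0216 and 1.88 ± 0.0830 FPKM (SD, n = 3 each). The log2 fold change was 0.12 (SE 0.063), a 1.14-fold difference.

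**Figure D1:**
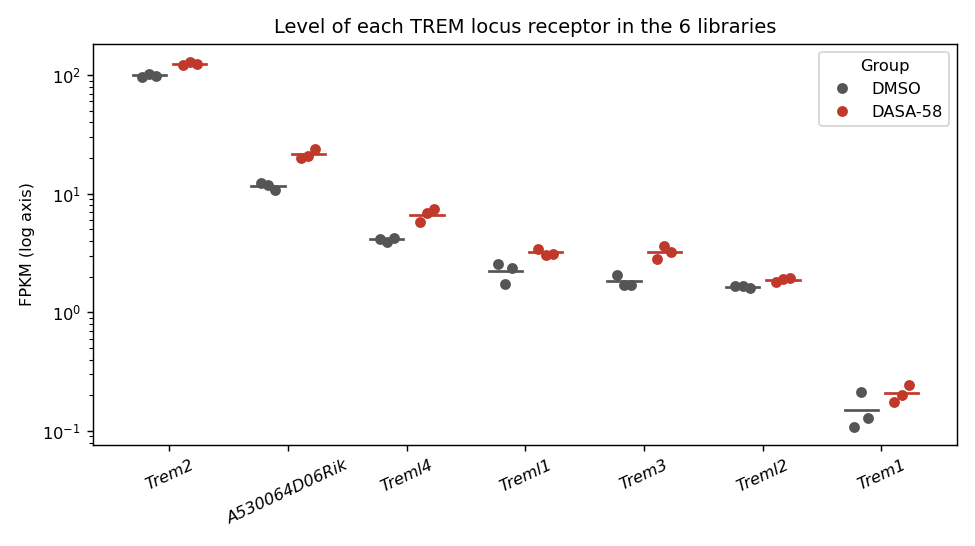
FPKM of each of the 7 receptors (log axis) in the 3 DMSO libraries (grey) and the 3 DASA-58 libraries (red); points are libraries and lines are group means. The DASA-58 points lie above the DMSO points for each gene except Trem1, where the groups overlap, and Trem2 stands far above the rest.

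Ordered by level, Trem2 came first in both groups, followed by A530064D06Rik and Treml4, with the ranges over libraries apart at each step. Treml1 and Trem3 came next and could not be ranked, because their ranges overlapped in both groups. Treml2 and then Trem1 were lowest, again with ranges apart. Under DMSO, however, Treml2 (up to 1.66 FPKM) lay barely below Trem3 (from 1.71 FPKM). Trem3 rested on 31 to 38 fragments per DMSO library, so that step is uncertain. Trem2 exceeded A530064D06Rik 8.59-fold with DMSO and 5.78-fold with DASA-58.

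The sum over the 7 genes was 121 ± 1.89 FPKM under DMSO and 162 ± 5.30 FPKM under DASA-58 (SD, n = 3 each). Trem2 made up 82.2 ± 1.03% of that sum with DMSO and 77.3 ± 1.36% with DASA-58. A530064D06Rik made up 9.57 ± 0.630% and 13.3 ± 1.10%. The mix thus differed between the groups as well as the sum, and in every DASA-58 library A530064D06Rik held a larger share than in any DMSO library.

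Across the whole table, 10965 genes had a mean of at least 1 FPKM and were fitted with limma, and 11.5% of them were called at a Benjamini-Hochberg adjusted p under 0.05, 4.24% higher and 7.28% lower with DASA-58. Of the calls, 63.2% were thus lower, a share that ran from 45.8% to 71.3% under the other scalings of the libraries. Of the 6 members in the fit, 5 were called higher and Treml2 was not. All 6 had no overlap between groups with DASA-58 higher, as had 11.8% of all fitted genes. Nothing is read from these counts, since the same contrast led to the choice of the genes. The median log2 fold change was 0.48 over the 6 members and -0.03 over all fitted genes.

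A ratio taken within a library does not depend on its scaling. Tyrobp, the DAP12 gene, was among the most abundant transcripts, at 884 ± 31.3 FPKM under DMSO and 959 ± 37.5 FPKM under DASA-58 (SD, n = 3 each). Its log2 fold change was 0.12 (SE 0.038), which was not called (limma, Benjamini-Hochberg adjusted p = 0.086), though it was with quantile normalization or voom, and the groups overlapped. Trem2 stood at 11.3 ± 0.250% of the Tyrobp level with DMSO and 13.0 ± 0.252% with DASA-58. A530064D06Rik stood at 1.31 ± 0.0782% and 2.25 ± 0.189%, and the 7 genes together at 13.7 ± 0.279% and 16.9 ± 0.124%. The 7 genes together were thus higher relative to Tyrobp in every DASA-58 library than in any DMSO library. This sum includes Treml1 and Treml2, which signal otherwise, and leaves out the DAP12-linked receptors of other loci. It rests mostly on Trem2, which was selected on this contrast. Against Csf1r, the receptor for the macrophage growth factor M-CSF, Trem2 stood at 31.0 ± 1.05% and 37.2 ± 2.19%, again with no overlap.

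**Figure D2:**
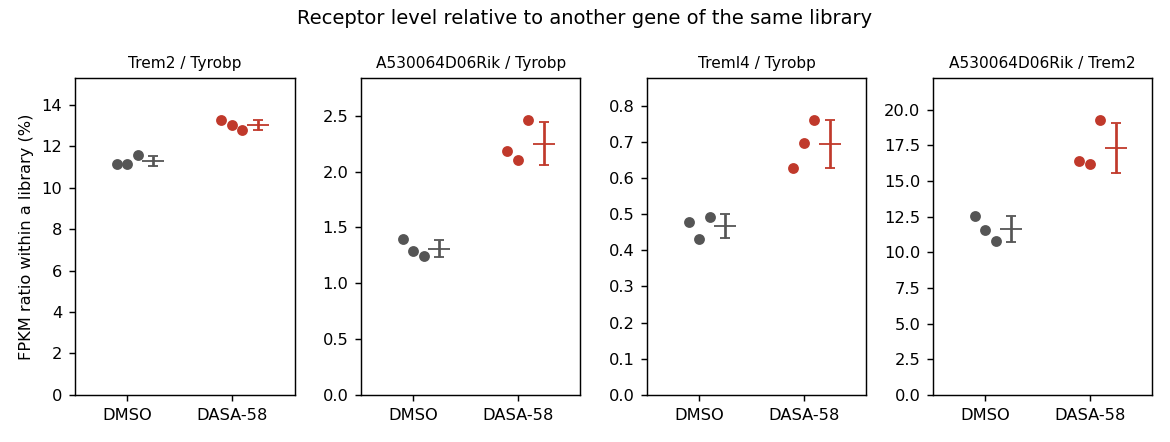
FPKM of Trem2, A530064D06Rik and Treml4 as a percentage of Tyrobp, and of A530064D06Rik as a percentage of Trem2, within each library; points are libraries and the bars beside them are mean ± SD (n = 3). The groups are apart in all 4 panels, and Trem2 moves from 11.3% to 13.0% of Tyrobp.

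Genes that lie next to the receptors were examined within 300 kb of the span. Of 8 such genes in the table, 4 were fitted, 1 was called higher and 1 lower, beside 4.24% and 7.28% of all fitted genes. The one that rose was B430306N03Rik, the TREM-like gene with the A530064D06Rik-like upstream sequence shown above. Its level was 8.41, 8.36 and 8.15 FPKM under DMSO and 11.8, 12.5 and 11.9 FPKM under DASA-58. The groups lay far apart for their spread, with a log2 fold change of 0.49 (SE 0.039, limma, Benjamini-Hochberg adjusted p = 4.1e-04). It shares 3.33% of its 50-base words with A530064D06Rik.

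The fitted genes on the flanks of the locus were not called or fell. Nfya, a subunit of the CCAAT-binding factor NF-Y, measured 16.1 ± 0.257 FPKM under DMSO and 16.3 ± 0.535 FPKM under DASA-58 (SD, n = 3 each), with a log2 fold change of 0.02 (limma, Benjamini-Hochberg adjusted p = 0.83). Oard1, an ADP-ribose hydrolase gene, measured 16.4 ± 0.524 and 16.3 ± 1.52 FPKM (adjusted p = 0.93 in the same limma fit). Foxp4, a forkhead transcription factor gene on the far side of A530064D06Rik, fell from 7.24 ± 0.172 to 5.44 ± 0.265 FPKM, a log2 fold change of -0.36 (SE 0.047, limma, Benjamini-Hochberg adjusted p = 0.0035). The other 4 neighbours were under the filter, among them 9830107B12Rik with 1 to 3 fragments per library.

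**Figure D3:**
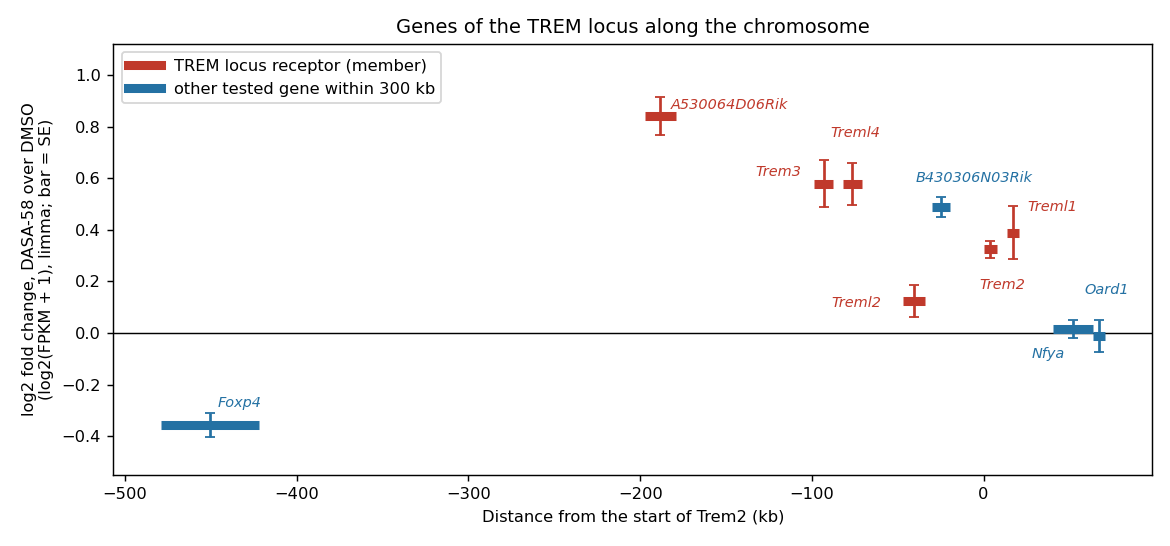
Fitted log2 fold change (DASA-58 over DMSO, log2(FPKM + 1) scale, bars are SE) of 6 receptors (red) and 4 neighbouring genes (blue) against distance from the start of Trem2 in kb; horizontal bars span each gene. The receptors and B430306N03Rik lie above 0, Nfya and Oard1 lie at 0.02 and -0.01, and Foxp4 lies at -0.36.

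Genes that work with the receptors were grouped in 5 lists holding 76 genes, of which 68 were fitted. Of these, 12 were called higher (17.6%) and 6 lower (8.82%), beside 4.24% and 7.28% of all fitted genes, and their median log2 fold change was 0.05.

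In the list of DAP12 signalling, more genes were called lower than higher, as over all fitted genes (7.28% lower and 4.24% higher). Of 29 fitted genes, among them Tyrobp and the adaptor genes Hcst and Fcer1g, 5 fell and 1 rose, and the median was -0.02. Src, a tyrosine kinase that osteoclasts need to resorb bone, fell from 22.7 ± 0.812 to 15.2 ± 0.627 FPKM (SD, n = 3 each), a log2 fold change of -0.55 (SE 0.043, limma, Benjamini-Hochberg adjusted p = 3.4e-04). Malt1, a protease that links ITAM receptors to NF-κB, fell from 7.06 ± 0.364 to 4.52 ± 0.375 FPKM (-0.55 on the log2 scale, SE 0.063, adjusted p = 0.0018 by limma). The adaptor genes Blnk (-0.26), Lcp2 (-0.15) and Dok3 (-0.17) fell less on the same scale. The calls of Lcp2 and Dok3 were narrow. That of Lcp2 was lost without DMSO 1 or any DASA-58 library (limma adjusted p up to 0.061), and that of Dok3 without any library but DMSO 3 (up to 0.0999) and with 3 of 4 other scalings. Lyn, a Src family kinase, rose from 40.0 ± 1.30 to 45.8 ± 0.688 FPKM (0.19, SE 0.033). Syk, added for its role and not by the naming rule, measured 39.0 ± 1.31 and 38.4 ± 1.16 FPKM and was not called (limma, Benjamini-Hochberg adjusted p = 0.72).

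Among 8 ligands and co-receptors, 6 were fitted and 1 was called, beside 11.5% of all fitted genes. Apoe, which encodes the lipoprotein that TREM2 binds, rose from 1014 ± 23.2 to 1402 ± 49.1 FPKM (log2 fold change 0.47, SE 0.032, limma, Benjamini-Hochberg adjusted p = 2.0e-04). Lgals3, encoding the lectin galectin-3, measured 1704 ± 29.4 and 1799 ± 2.72 FPKM and was not called (adjusted p = 0.067 in the same limma fit). Plxna1, whose product plexin-A1 forms complexes with TREM2 and with the A530064D06Rik product, measured 35.5 ± 0.369 and 37.0 ± 1.08 FPKM and was not called (adjusted p = 0.29). Hmgb1, Lpl and Pglyrp1 had log2 fold changes of 0.08, -0.08 and 0.05 and were not called.

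None of the 9 genes that shed and cleave TREM2 was called by limma at an adjusted p under 0.05, beside 11.5% of all fitted genes. Of the 9, 2 had an unadjusted p under 0.05 and 2 were called with voom weights. The median log2 fold change was -0.01. Adam10, a sheddase of TREM2, had a log2 fold change of 0.07 (SE 0.034) and Ncstn, a γ-secretase subunit, one of -0.07 (SE 0.034). The γ-secretase subunit genes Aph1b and Aph1c, at 0.32 (SE 0.090) and 0.15 (SE 0.046), were those that voom called, and Aph1a and Psenen measured -0.06 and -0.05.

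Receptors that share the DAP12 adaptor from other loci formed a further list. Of 7 fitted, 2 were called higher and 0 lower, beside 4.24% and 7.28% of all fitted genes, with a median log2 fold change of 0.10. Sirpb1c, a signal-regulatory protein, rose from 11.5 ± 0.150 to 14.2 ± 0.866 FPKM (0.28, SE 0.047, limma, Benjamini-Hochberg adjusted p = 0.0096). Pilrb1, an activating paired immunoglobulin-like receptor, rose from 4.29 ± 0.238 to 5.34 ± 0.307 FPKM (0.26, SE 0.057, limma adjusted p = 0.027). The call of Pilrb1 was lost without any library but DMSO 1 (limma adjusted p up to 0.089). Pilrb2 (0.25), Clec5a (0.10), Cd300lb (0.10) and Sirpb1b (0.05) were not called.

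Of the 5 lists, that of genes known to depend on TREM2 in lipid-handling macrophages and microglia held the most calls. The lists were written with earlier results of these data known, so this order is a description. Of 20 fitted, 9 rose and 1 fell, beside 4.24% and 7.28% of all fitted genes, and the median log2 fold change was 0.14. Among the rises, the calls of Lilrb4a, Cd68, Gpnmb and Ctsd were lost in 9, 7, 3 and 2 of 18 alternatives. The median over the 10 general macrophage markers was 0.15, with 4 higher and 2 lower, and Cd68 counts as a rise in both lists. What the macrophage markers gave to the count of this list was not tested. Ccl6, a chemokine gene, rose from 68.3 ± 2.27 to 102 ± 3.19 FPKM (0.57, SE 0.036, limma, Benjamini-Hochberg adjusted p = 1.2e-04). Lipa, the lysosomal acid lipase gene, rose from 518 ± 14.1 to 648 ± 4.28 FPKM (0.32, SE 0.026), and Ctsb, encoding the lysosomal protease cathepsin B, from 936 ± 18.8 to 1141 ± 16.9 FPKM (0.29, SE 0.025). Fabp5, a fatty acid-binding protein gene, rose by a log2 fold change of 0.19 (SE 0.028), and Apoe, described above, is also in this list. The fitted gene that fell was Spp1, encoding osteopontin, from 287 ± 8.68 to 236 ± 5.68 FPKM (-0.28, SE 0.031, limma, Benjamini-Hochberg adjusted p = 0.0017). Cst7, named after its values were seen, is also in this list but was not fitted. It measured 1.04 ± 0.019 FPKM under DMSO and 0.547 ± 0.252 FPKM under DASA-58, with no overlap. Its mean missed the minimum of 1 FPKM only through the DASA-58 group, and it rested on 7 to 19 fragments per library. The groups overlapped for Itgax and Ch25h, also not fitted.

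**Figure D4:**
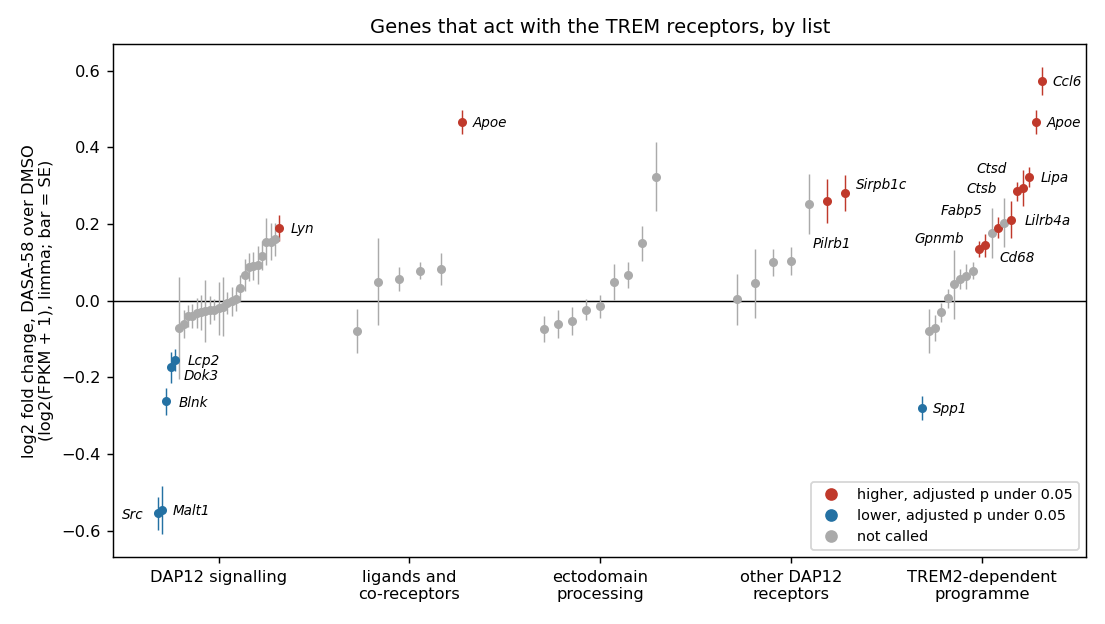
Fitted log2 fold change (DASA-58 over DMSO, log2(FPKM + 1) scale, bars are SE) of the 68 fitted genes in 5 lists, ordered within each list; red and blue mark genes called higher and lower by limma at an adjusted p under 0.05. The DAP12 signalling list holds 5 of the 6 genes called lower, and the TREM2-dependent list holds 9 called higher.

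Markers of cell types were read beside the receptors. Their counts of calls stand beside 4.24% higher and 7.28% lower over all fitted genes. The macrophage markers were present throughout, and of 10 fitted 4 rose, 2 fell (Cd14 and Cx3cr1, with log2 fold changes of -0.15 and -0.40, named after their values were seen) and 4 were not called. Lyz2, which makes up most of their sum, measured 15156 ± 415 and 16826 ± 1220 FPKM, overlapped between the groups and was not called (limma, Benjamini-Hochberg adjusted p = 0.11). The markers had a summed level of 16490 to 17327 FPKM under DMSO and 17431 to 19744 with DASA-58. Cd68 and Adgre1, the next most abundant of them, rose, with log2 fold changes of 0.14 (SE 0.030) and 0.26 (SE 0.025), the call of Cd68 being lost without DMSO 1 or 3 or DASA-58 2 or 3 (limma adjusted p up to 0.083). All 9 fitted osteoclast markers of 10 fell, with a median log2 fold change of -0.87 and sums of 778 to 833 and 449 to 467 FPKM. Ctsk, encoding the collagen-degrading protease cathepsin K, fell from 210 ± 6.26 to 110 ± 3.28 FPKM, and Acp5 and Mmp9 fell to 55.6 ± 0.320 and 246 ± 7.94 FPKM. In such bulk samples, fewer cells of a type and less RNA per cell cannot be told apart. The osteoclast markers were thus lower where the receptors were higher, the macrophage markers went both ways, and the part of either in the receptor levels was not tested.

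Markers of other cell types in which these receptors are known ranged from near 0 to levels above those of the receptors. Calls among them also stand beside 4.24% higher and 7.28% lower over all fitted genes. The 6 dendritic cell markers in the table were each under 0.5 FPKM in all libraries, with Zbtb46 the highest, and summed to 0.531 to 0.853 FPKM, while A530064D06Rik reached 24.0 FPKM. Siglech, a receptor gene of plasmacytoid dendritic cells named here after its values were seen, had 1 fragment in the third DMSO library and 0 in the other 5 libraries. Of the 8 platelet markers, 6 were under 0.5 FPKM in all libraries, Gp1ba the highest of those. Pf4, a chemokine gene that macrophages also express, rose from 412 ± 23.3 to 599 ± 35.2 FPKM, and Ppbp from 1.05 ± 0.0987 to 1.77 ± 0.30 FPKM. The neutrophil markers summed to 183 to 186 FPKM under DMSO and 150 to 153 FPKM under DASA-58, with 4 of 9 lower, among them Ngp, S100a9 and S100a8, and 1 higher. The monocyte markers summed to 24.5 to 25.9 and 18.6 to 19.6 FPKM, with 2 of 5 lower, Chil3 and Vcan, and Ly6c2 not called. The B cell markers, with Cd79b and Cd22 highest, summed to at most 3.82 FPKM with 1 of 2 higher (Cd22), and the T and NK cell markers, mostly Cd4, to at most 7.47 FPKM with none called among 1 fitted. The calls of Ppbp and S100a8 were lost in 5 and 6 of the 6 fits that leave out 1 library, with limma adjusted p up to 0.089 and 0.096. Cd22 was lost in 3 of the 4 such fits in which it reached 1 FPKM (up to 0.074), and its mean passed that minimum only through the DASA-58 group. What these cells gave to the receptor levels was not tested.

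The genes whose levels followed the receptors most closely were named by Pearson's r over the 6 libraries, as a description in which the difference between the groups supplies most of the correlation. For Trem2 they were Sfxn5 (r = 0.9997), Taldo1 (0.997), Commd8 (0.996), Akr1b8 (0.996) and Ctsb (0.996), and 454 of the fitted genes exceeded 0.9. For A530064D06Rik they were Aldoc (0.998), Cd81 (0.998), Apoe (0.992), Hexa (0.991) and Insig1 (0.991), with 439 genes above 0.9. Trem2 and A530064D06Rik correlated with each other at 0.960. Ctsb, named for Trem2, and Apoe, named for A530064D06Rik, are also in the TREM2-dependent list, and the other genes named here are not. No link is read from this, since both receptors were selected on the same difference between the groups.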

How the data were processed

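RNA was sequenced in 6 libraries, 3 per group, and each column was assigned from its label; 0 value columns were left unmapped. The authors deposited FPKM values for 23504 genes in 1 table. The submitters' processing notes name HISAT2 2.1.0, HTSeq 0.6.0 and the build mm8, without roles; strand use and the handling of shared reads are not given in the sources used here. Gene positions are from GENCODE M21 (GRCm38), matched by identifier, since the table holds no coordinates; symbols were matched for 23455 identifiers.

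Whole fragments were recovered from the FPKM steps with annotated lengths for 21341 genes (90.8%) and with fitted lengths for 1737, within 0.01 of a fragment. The depth was 18209396 to 18853041 fragments with DMSO and 18191560 to 18968556 with DASA-58. Fragments cover counting error only. Libraries differed by more than counting noise within groups (mean chi-square per gene 2.40 to 3.42 over 12952 genes) and more between groups (10.4 to 12.8).

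The contrast of DASA-58 over DMSO was fitted in R 4.3.3 by limma (version 3.58.1), with a variance trend, to log2(FPKM + 1). Genes whose mean over the libraries reached 1 FPKM entered, and p-values were adjusted over all 10965 by Benjamini-Hochberg. Fold changes on this scale understate those of low genes. The fit was tested on simulated data. Members, lists and tests were chosen with earlier results of these data known. Named genes were all members, Tyrobp and up to 6 genes of each pathway list by smallest p, up to 3 of each marker list by highest mean FPKM, neighbours within 300 kb, and the 5 genes most correlated with Trem2 and A530064D06Rik. Motifs were searched on both strands. The upstream windows were aligned after they had been seen. Alternatives were other pseudocounts, filters, scalings, variance models, weights on recovered fragments, a replicate block and leaving out each library.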

Additional observations from a re-analysis of the deposited data

How the results depend on the processing

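The 6 fitted members stayed above 0 under all 18 alternatives that held them, and all 7 were above 0 with no filter. The signs are a description only, since the alternatives refit the same contrast on which the genes were selected. Trem1, with 6 to 14 fragments per library, overlapped between the groups. The median log2 fold change of the 6 fitted members was 0.48. It was 0.60 with a pseudocount of 0.1 FPKM, 0.29 with one of 5 FPKM and 0.61 with voom weights on recovered fragments. The pseudocount sets how far low genes are drawn to 0. Leaving out 1 library gave 0.44 to 0.52. Trem2 ranged from 0.30 to 0.35 and A530064D06Rik from 0.68 to 0.90 over all alternatives.

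The 1263 genes called by limma became 629 with no filter on low values, 541 with no variance shrinkage, 1950 with voom and 667 to 977 with 1 library left out. They fell by over 1.5 times without DMSO 1 (667) or DASA-58 1, 2 or 3 (690, 760 and 673). Beyond the smaller number of samples, the cause was not tested. The 18 pathway list genes called became 11 with no variance shrinkage, 27 with voom and 14 to 17 with 1 library left out. Of all calls, 63.2% were lower, against 45.8% with centring on the median, 48.7% with a trimmed mean of log ratios, 49.5% with quantile normalization and 71.3% with equal sums. Same-numbered libraries did not deviate together (correlations -0.0155, 0.0157 and -0.0162). Whether the numbers pair libraries by mouse or culture is not given in the sources used here. A replicate block called 957 genes and 16 pathway list genes.

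B430306N03Rik, Foxp4, Src, Malt1, Blnk, Apoe, Ccl6, Ctsb, Fabp5 and Spp1 kept their calls under 18 of 18 alternatives, and Lipa under 17 of 17. Calls were lost for S100a8 in 12, Dok3 in 11, Lilrb4a in 9, Pilrb1, Ppbp and Sfxn5 in 8 each, Cd68 in 7, Cd22 in 6, Lcp2 in 4, Gpnmb in 3, Ctsd in 2, and Lyn and Sirpb1c in 1 each. Sfxn5 lost it in each of the 6 fits that leave out 1 library. Of these, Lilrb4a lost it in 4 of the 6 fits that leave out 1 library (adjusted p 0.021 to 0.093). Tyrobp was called with quantile normalization (adjusted p = 0.042) and voom (0.0086), over a range of 0.0086 to 0.31. Lgals3 gained a call in 3, Lyz2 in 2, and Lpl, Aph1b, Aph1c, Cd300lb and Commd8 in 1 each. Changes of sign were found only in genes not called, all near 0. Nfya reached -0.00137 with equal sums and ranged from -0.010 to 0.030 with 1 library left out, below 0 without DASA-58 replicate 2. Oard1 reached 0.015 with median centring, 0.011 with quantile normalization, 0.012 with the trimmed mean, and ranged from -0.078 to 0.048 with 1 library left out, above 0 without DASA-58 replicate 3 or DMSO replicate 1. Syk reached 0.0030, 0.0018 and 0.000443 with the same 3 scalings. Cd4 reached 0.0034 with quantile normalization. Pglyrp1 ranged from -0.051 (without DMSO replicate 1) to 0.090 and Sirpb1b from -0.023 (without DASA-58 replicate 3) to 0.14 with 1 library left out. With 3 libraries a group, an exact permutation test of a single gene cannot go below p = 0.10.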
